A study of Mus musculus with 8 samples.

Results

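The genes described here encode the proteins of the cytosolic ribosome. They were taken by symbol from a table of 23336 gene rows: every row named Rpl or Rps with a number, together with Rplp0, Rplp1, Rplp2 and Rpsa, and without the Rps6k kinases and the rows named as pseudogenes. The rule gave 86 rows. Of these, 77 are core ribosomal proteins, 46 of the large and 31 of the small subunit, and 9 are paralogs or carry a similar name (Rpl3l, Rpl7l1, Rpl10l, Rpl22l1, Rpl36al, Rpl39l, Rps4y2, Rps27l and Rps19bp1). They were measured in skeletal muscle of female C57BL/6 mice at postnatal day 2, in 4 libraries from ΔDMR1-U2 mice and 4 from wild-type mice. ΔDMR1-U2 names a deletion at the imprinted Igf2 locus, and the study is about transcripts of the antisense gene Igf2as. The sources used here do not give the zygosity of the deletion. Sequencing was paired-end, on total RNA after removal of ribosomal RNA. The labels do not say whether each library is a separate animal, so the p-values measure the spread between libraries.

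Depth ranged between 16781493 and 20060129 counts among ΔDMR1-U2 libraries and between 16084413 and 26913636 among wild-type ones. Levels are CPM, counts per 1000000 of the library total after scaling by the trimmed mean of M values. Igf2as averaged 5.92 CPM (SD 0.269) over the 4 ΔDMR1-U2 libraries and 63.4 CPM (SD 9.70) over the 4 wild-type ones. The library labelled ΔDMR1-U2 1A goes against its female label, with 2.50 CPM of Xist against at least 1269 CPM in each of the other 7 libraries. Library 1B of ΔDMR1-U2 stood apart in the summed level of 8 white adipocyte markers, at 750 CPM against at most 373 CPM elsewhere. Results are therefore also given without these 2 libraries. Libraries also differed in the summed level of 4 cartilage markers. It was 34.0 CPM in ΔDMR1-U2 library 3 and 54.1 CPM in wild-type library 1A, against 339 to 1273 CPM elsewhere. The part of this difference in the results was not tested. All 9 skeletal muscle markers were present, with sums between 58434.5 and 63364.2 CPM in ΔDMR1-U2 and between 62854.6 and 76213.7 CPM in wild-type.

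Each ribosome holds 1 copy of most of its proteins, so cells make them in matched amounts, and excess subunits are degraded. Most mouse mRNAs for these proteins begin with a terminal oligopyrimidine tract, a C followed by a run of C and T. Through this tract the growth kinase mTORC1 sets how strongly they are translated, mainly without changing the mRNA level. In newborn muscle, fibres grow by adding protein, which makes ribosome supply a part of muscle growth. Duplicated family members stand in for their partners in some tissues; Rpl3l is made in heart and skeletal muscle in place of Rpl3, the large-subunit protein that lies next to the peptidyl transferase centre.

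The tract can be read at the starts of several members. The 30-base windows below are from RefSeq promoter entries on GRCm38.p6, 5′ to 3′ on the strand of the gene. The first 4 hold the 15 bases before and the 15 from the annotated start, with the unbroken pyrimidines from the start onward in capitals. In each of them, pyrimidines also lie directly before the start. The last holds the 30 bases before the upstream one of 2 annotated starts of Rpl3l, with CAGCTG, an E-box of the form bound by myogenic factors, in capitals. The windows and motifs were chosen after the sequences were seen, to show the common start and how Rpl3l differs from it.
Rps10 (chr17:27635230-27635259, minus strand): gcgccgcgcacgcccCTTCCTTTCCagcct
Rpl35 (chr2:39005117-39005146, minus strand): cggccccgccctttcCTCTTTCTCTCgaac
Rps6 (chr4:86857353-86857382, minus strand): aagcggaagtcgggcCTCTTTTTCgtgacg
Rpl38 (chr11:114668565-114668594, plus strand): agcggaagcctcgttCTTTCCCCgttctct
Rpl3l (chr17:24727796-24727825, plus strand): tgggatctggCAGCTGagtgttctagctct

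A promoter entry matched 65 of the 86 members, 57 of them core genes. Between 20 bases before and 50 bases after the start, on the gene's strand, CTTTCC occurred in 17 of the 57 core genes (29.8%) and in 3.79% of the 27025 genes with an entry. CTCTTT, which can overlap it, occurred in 19 (33.3%) and in 3.04% of all genes. CCGGAAG, the core of sites for ETS-family factors, occurred on either strand of the whole window of 250 bases before to 50 after the start in 24 core genes (42.1%) and in 9.93% of all. CAGCTG, which reads the same on both strands, occurred in 2 core genes (3.51%) and in 18.3% of all. Rpl3l held CAGCTG and none of the other 3 motifs. These are matches of letters only.

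The members differed widely in level. Per kilobase of exon, merged over all annotated transcripts, 19 members averaged at least 100 CPM, 50 lay between 10 and 100 and 17 below 10, with a median of 37.0 CPM per kilobase. The merged length varies more than the coding length: it is 383 bases for Rpl36 and 6270 for Rps15a, whose coding lengths are 315 and 390 bases. Levels per kilobase and their order thus depend in part on the annotation. Rplp1, an acidic protein of the stalk that recruits translation factors, was highest, at 720 ± 121 CPM per kilobase in ΔDMR1-U2 and 699 ± 98.9 in wild-type. Rplp0, the base of that stalk, followed at 402 ± 31.0 CPM per kilobase in ΔDMR1-U2 and 362 ± 36.4 in wild-type. Rpl4, a protein of the peptide exit tunnel, stood at 386 ± 27.7 CPM per kilobase in ΔDMR1-U2 and 355 ± 30.3 in wild-type, within the spread of Rplp0. Rpl8 had 338 ± 27.6 CPM per kilobase in ΔDMR1-U2 and 321 ± 39.4 in wild-type, and Rps15 had 310 ± 16.7 in ΔDMR1-U2 and 292 ± 28.2 in wild-type. Rps3a came next, at 254 ± 16.3 CPM per kilobase in ΔDMR1-U2 and 220 ± 16.5 in wild-type.

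At the other end, Rpl26 and Rpl10l had 0 counts in every library, which allows up to 3 counts per library, or 0.112 to 0.195 CPM (counting error only). Rpl30 had 2 to 7 counts in ΔDMR1-U2, against 3 to 9 in wild-type. These 3 members did not pass the filter on low counts, which left 83 tested members. Rpl26 and Rpl30 are core proteins of the large subunit.

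The coding sequences of these genes are shared with many copies elsewhere in the genome. Of 85 members with an annotated coding sequence, 28 had no 50-base stretch that was absent from all other annotated genes in GENCODE vM21, and the median member had such stretches over 11.7% of its length. A member shared stretches with a median of 9 other genes, and at most with 123. Rpl3l, Rpl39l and Rps19bp1 were among those unique throughout. By contrast, 41 of 76 mitochondrial ribosomal protein genes were unique throughout and 1 was never unique. Among the core members, the median level was 30.7 CPM per kilobase in the 27 genes with no unique stretch and 144 in the 11 genes unique over at least 50% of their length. Across the 77 core genes, Spearman's rho between the unique share and the level was 0.446, or 0.486 with 100-base stretches, as a description of genes that share libraries. The sources used here do not say how reads that match several places were counted. The counts of most members may thus be a part of their reads, and how far this enters the levels was not tested. Exons of 28 members also overlap another gene on the same strand, and those of 19 overlap a gene on the opposite strand.

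**Figure D1:**
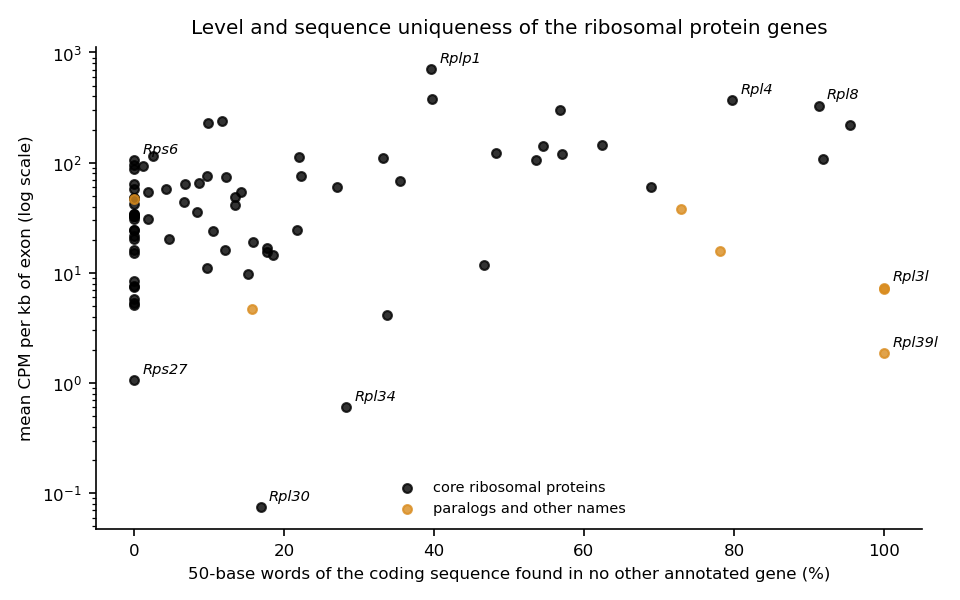
Mean level of 82 members over the 8 libraries (CPM per kilobase of exon, log scale) against the percentage of its 50-base coding stretches found in no other annotated gene. Black points are core ribosomal proteins and orange points paralogs and other names; the members at 0 counts and Rps4y2, which has no coding sequence in the annotation, are among those not drawn. Points at 0% run from 1.06 to 105 CPM per kilobase.

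The comparison asked how the ribosomal protein mRNAs stood in ΔDMR1-U2 muscle relative to wild-type. The differences were small and mostly of one sign: 67 of the 83 tested members (80.7%) had a positive log2 fold change of ΔDMR1-U2 over wild-type, against 49.8% of all 15241 tested genes. The median over members was 0.10, with an interquartile range of 0.04 to 0.16, against -0.00 over all genes. None passed the threshold: 0 of 83 members had an adjusted p under 0.05 with the edgeR quasi-likelihood test and Benjamini-Hochberg adjustment over all genes, where 1.13% of all genes did (172 genes, 78 higher and 94 lower). At an unadjusted p under 0.05 there were 17 members (20.5%), beside 21.3% of all genes; 13 had a higher and 4 a lower mean in ΔDMR1-U2, beside 10.4% and 10.9% of all genes. DESeq2 called 1 member, Rpl22, where it called 930 of 15133 genes (6.15%). The authors' deposited table has 0 members with an adjusted p under 0.05, where 0.887% of its 20187 tested genes lie under it; its lowest member value is 0.298, for Rps27. So the share of members with a small p was near that of all genes, while the sign was unevenly split.

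The sign was split by the class of the gene. Of the 75 tested core proteins, 66 had a positive log2 fold change, 40 of 44 in the large subunit (median 0.12) and 26 of 31 in the small subunit (median 0.10). Of the 8 other tested rows, 1 had a positive value. Most values were close to 0: 77 of the 83 lay within 0.3 on the log2 scale, and their median standard error was 0.08, against 0.11 over all tested genes. The range ran from -0.62 for Rps16 to 0.86 for Rps27. Libraries of the groups did not overlap for 6 members (Rps27, Rpl22, Rpl23a and Rpl10a higher in ΔDMR1-U2, Rps29 and Rps4y2 lower), where 12.8% of all tested genes did not, 6.4% higher and 6.38% lower.

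**Figure D2:**
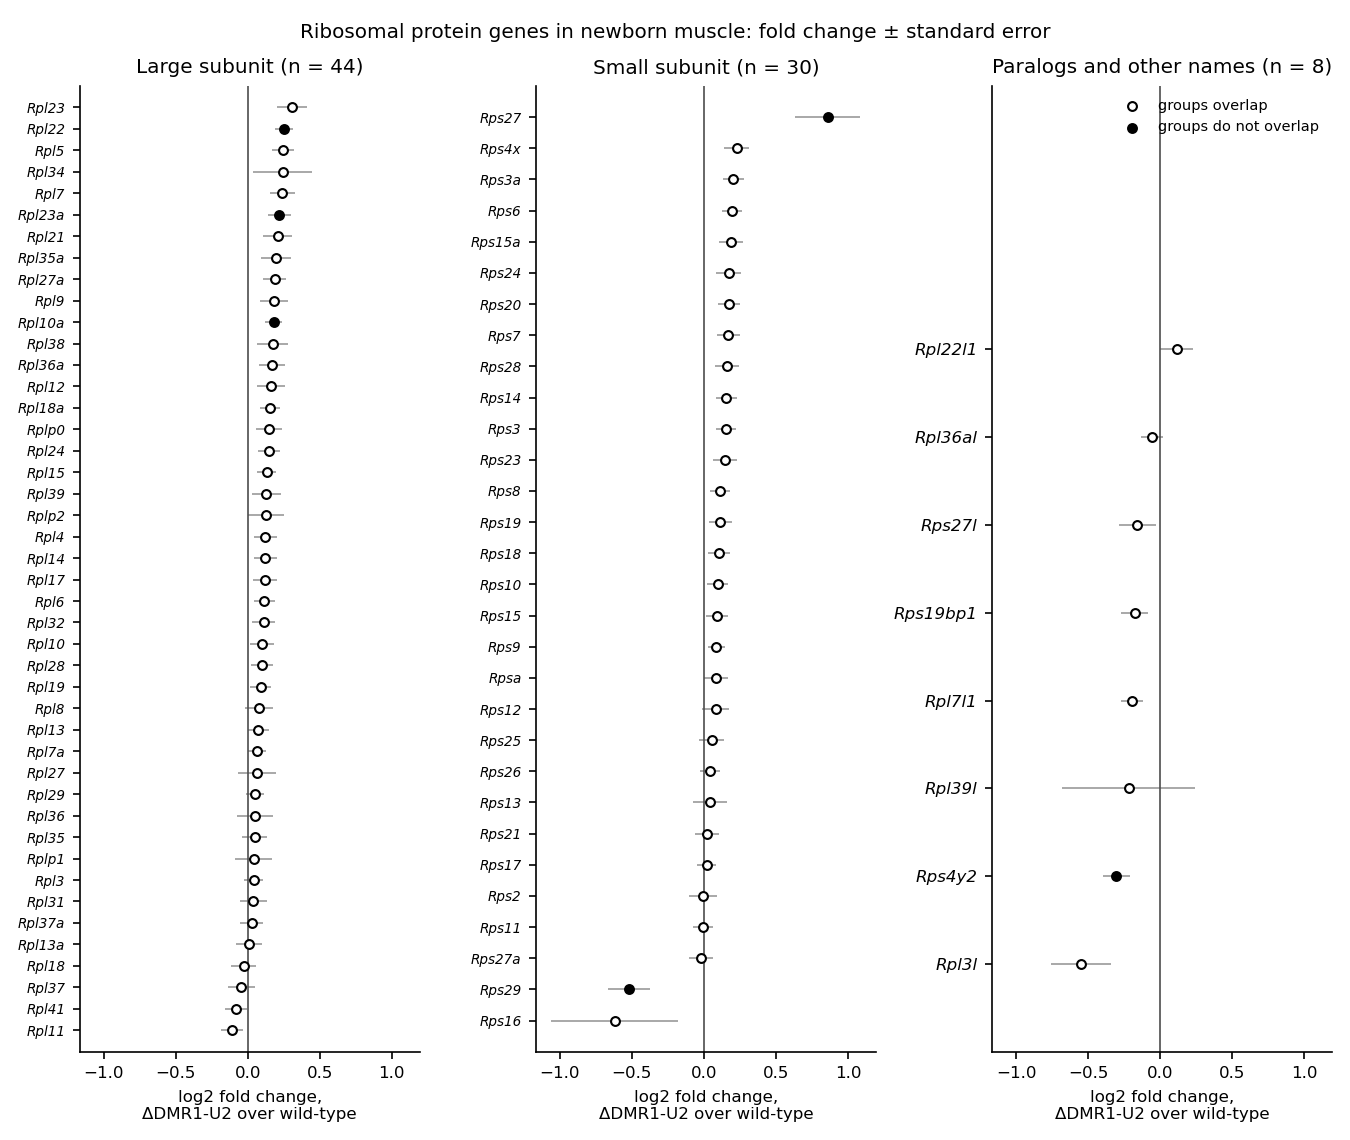
Log2 fold change of ΔDMR1-U2 over wild-type for 82 of the 83 tested members, with its standard error, for large-subunit proteins, small-subunit proteins, and paralogs and other names. Filled points mark the 6 members whose libraries do not overlap between groups; 65 of the 74 core proteins drawn and 1 of the 8 other rows lie right of 0.

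Most members were high or low together within a library. Their summed share of all counts was 1.12%, 1.11%, 1.12% and 1.01% in ΔDMR1-U2, for the libraries numbered 1A, 1B, 2 and 3, the order used below. In wild-type, with the same numbers, it was 1.01%, 1.06%, 0.917% and 0.911%. The group means were 1.09% ± 0.0540 in ΔDMR1-U2 and 0.974% ± 0.0729 in wild-type (SD, n = 4 each). The groups overlapped: ΔDMR1-U2 library 3 lay among the wild-type libraries, and wild-type library 1B above it. Counted by gene, 68, 60, 76 and 16 of the 83 members were above their own mean over the 8 libraries in ΔDMR1-U2, and 52, 57, 10 and 9 in wild-type. By this count, wild-type libraries 1A and 1B were closer to ΔDMR1-U2 libraries 1A, 1B and 2. ΔDMR1-U2 library 3 was closer to wild-type libraries 2 and 3. By the summed share, ΔDMR1-U2 library 3 was instead nearest to wild-type library 1A, both at 1.01%.

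The balance of the subunits was similar in all libraries. The ratio of summed CPM of the large to the small subunit was 1.24, 1.27, 1.27 and 1.25 in ΔDMR1-U2 libraries and 1.29, 1.26, 1.26 and 1.27 in wild-type libraries, and the groups overlapped. Without ΔDMR1-U2 libraries 1A and 1B the median log2 fold change of the members was 0.08, 0.09 without 1A alone and 0.10 without 1B alone, with 0 members called by edgeR in these fits. The RNA of titin (Ttn), the giant spring protein of the sarcomere, took 101712 to 119232 CPM in the ΔDMR1-U2 libraries, against 115214 to 133670 CPM in wild-type. With Ttn left out of the total, the summed share of the members was 1.23% ± 0.0578 in ΔDMR1-U2 and 1.11% ± 0.0823 in wild-type. In bulk tissue, a change in the number of cells of a type and a change in RNA per cell cannot be told apart. Summed levels of 3 nerve markers (70.9 to 114 CPM in ΔDMR1-U2, 30.8 to 64.3 CPM in wild-type) and of 3 brown adipocyte markers (17.2 to 32.5 CPM in ΔDMR1-U2, 11.5 to 12.5 CPM in wild-type) did not overlap between groups. Their part in the results was not tested. The brown adipocyte sum was mostly Cidea, at 16.1 to 30.7 CPM in ΔDMR1-U2 and 9.93 to 11.2 CPM in wild-type. Elovl3 overlapped between groups, at 0.817 to 1.76 CPM in ΔDMR1-U2 and 1.38 to 1.61 CPM in wild-type. Ucp1, the defining brown adipocyte gene, was at most 0.0986 CPM in the ΔDMR1-U2 libraries, against 0.112 CPM in wild-type.

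**Figure D3:**
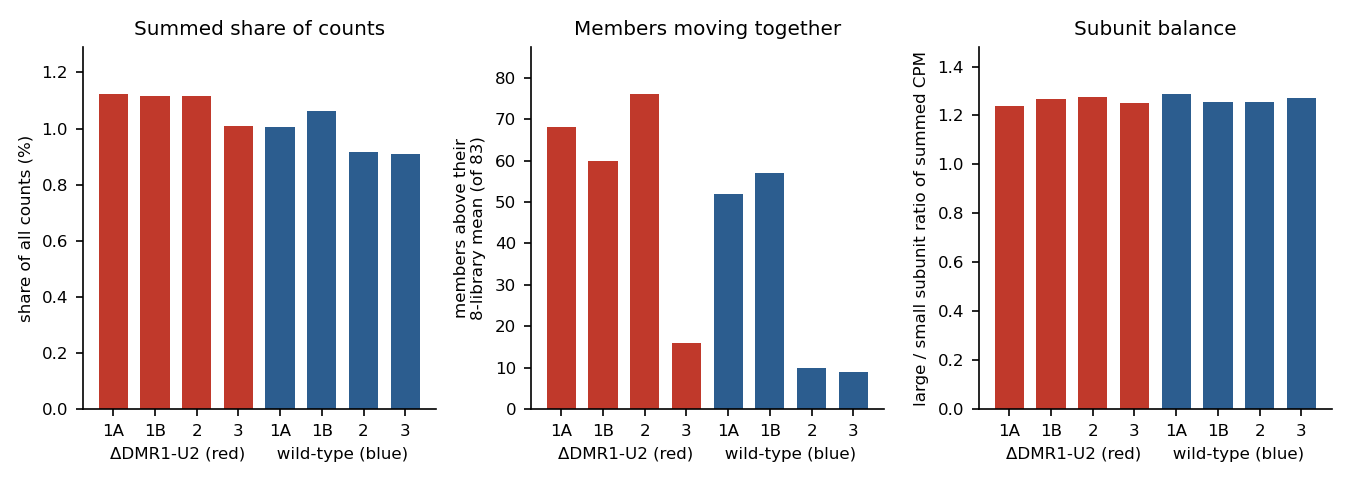
The members in each library, ΔDMR1-U2 in red and wild-type in blue: their summed share of all counts (%), the number above their own 8-library mean (of 83), and the ratio of summed CPM of the large to the small subunit. The share lies between 1.01% and 1.12% in ΔDMR1-U2, and between 0.911% and 1.06% in wild-type, and the subunit ratio from 1.24 to 1.29 over all 8 libraries.

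Among large-subunit proteins, Rpl22 had the smallest p. Rpl22 is an RNA-binding protein that mouse ribosomes can do without and that represses its own paralog Rpl22l1. It had 206, 190, 189 and 184 CPM in the ΔDMR1-U2 libraries, against 165, 170, 156 and 155 CPM in wild-type, so every ΔDMR1-U2 library was above every wild-type library. The gene lies at chr4:152325742-152334071 on the plus strand in mm10, overlaps no other annotated exon and is unique over 69.0% of its coding sequence. Its log2 fold change was 0.25 (SE 0.06; edgeR adjusted p = 0.0708). DESeq2 gave an adjusted p of 0.00776, the lowest of a range that reached 0.275 over the alternatives.

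Rpl10a, at the mobile stalk by which spent tRNA leaves, had 124, 123, 125 and 118 CPM in the ΔDMR1-U2 libraries, against 112, 114, 102 and 104 CPM in wild-type. The groups did not overlap, with a log2 fold change of 0.18 (SE 0.06; edgeR adjusted p = 0.128). Rpl23a, which sits at the mouth of the exit tunnel, had 80.5, 93.7, 93.6 and 78.1 CPM in the ΔDMR1-U2 libraries, against 77.8, 77.7, 71.4 and 70.2 CPM in wild-type. Its groups were separated by less than 1 CPM, and its exons overlap Snord42b and, on the opposite strand, Tlcd1. Rpl10a exons overlap CT025652.2 on the opposite strand, and neither Rpl10a nor Rpl23a has a unique 50-base coding stretch. Rpl23, with 115, 90.4, 100 and 78.4 CPM in the ΔDMR1-U2 libraries, against 78.0, 83.6, 78.5 and 69.9 CPM in wild-type, had the highest log2 fold change of the subunit, 0.31 (SE 0.11; edgeR adjusted p = 0.147), with overlapping groups. Rpl34 and Rpl7 were also among the 6 members with the highest log2 fold change, both at 0.24, and Rpl34 rested on 24 to 37 counts in ΔDMR1-U2, against 21 to 42 in wild-type.

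Rpl5 and Rpl11 bind the 5S RNA of the ribosome together and, when set free, hold the p53 inhibitor Mdm2. Rpl5 had 154, 140, 152 and 134 CPM in the ΔDMR1-U2 libraries, against 122, 136, 119 and 112 CPM in wild-type. Rpl11 had 44.2, 40.1, 37.7 and 36.4 CPM in the ΔDMR1-U2 libraries, against 41.0, 44.8, 44.2 and 40.7 CPM in wild-type. The partners had log2 fold changes of opposite sign, 0.24 (SE 0.07; edgeR adjusted p = 0.113) for Rpl5 and -0.11 (SE 0.08; edgeR adjusted p = 0.445) for Rpl11, the lowest of the core large-subunit proteins. For both genes the groups overlapped, and neither has a unique 50-base coding stretch. The stalk proteins Rplp0, Rplp1 and Rplp2 had values of 0.15, 0.04 and 0.13, with 0 called by edgeR or DESeq2 and 0 at an unadjusted p under 0.05; Rplp1 was at -0.06 without ΔDMR1-U2 library 2 and at -0.02 without wild-type library 2. Rpl38, needed in mice for the translation of certain Hox mRNAs, had 36.5 ± 3.59 CPM in the ΔDMR1-U2 libraries, against 32.5 ± 4.40 CPM in wild-type, within the spread.

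In the small subunit, Rps27 had the largest log2 fold change of all members and one of the smallest counts. It had 26, 29, 25 and 26 counts in the ΔDMR1-U2 libraries, against 16, 15, 18 and 21 counts in wild-type, which is 1.41 ± 0.127 CPM in ΔDMR1-U2 libraries against 0.794 ± 0.210 CPM in wild-type. The groups did not overlap, and the log2 fold change was 0.86 (SE 0.23; edgeR adjusted p = 0.0814). Rps27 (chr3:90212522-90213651, minus strand) has no unique 50-base coding stretch and shares sequence with 9 other genes, 8 of them pseudogenes, so its value is uncertain.

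Rps29, a zinc-binding protein of the small-subunit head, went the other way on similarly few reads. It had 68, 57, 46 and 47 counts in the ΔDMR1-U2 libraries, against 69, 102, 111 and 97 counts in wild-type, which is 2.89 ± 0.486 CPM in ΔDMR1-U2 libraries against 4.16 ± 0.237 CPM in wild-type. The groups did not overlap in CPM, with a log2 fold change of -0.52 (SE 0.15; edgeR adjusted p = 0.0945). It too lacks a unique coding stretch. Rps16, which also lacks a unique 50-base coding stretch, had the lowest log2 fold change, -0.62. Its counts, however, scattered within both groups: 248, 158, 36 and 136 in ΔDMR1-U2, against 103, 183, 508 and 310 in wild-type. Its standard error was 0.44 (edgeR adjusted p = 0.440), and the value was -0.25 without wild-type library 2, -0.32 with ΔDMR1-U2 library 2 left out, -0.99 with ΔDMR1-U2 library 1A left out, and -1.36 with ΔDMR1-U2 libraries 1A and 1B left out.

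Rps6, Rps3a, Rpsa and Rps19 had more counts, with log2 fold changes from 0.08 to 0.20. Rps6 has no unique 50-base coding stretch, and Rpsa, Rps3a and Rps19 are unique over 1.20%, 11.7% and 46.7% of theirs. Rps6, the protein that S6 kinases phosphorylate, had 183, 183, 184 and 165 CPM in the ΔDMR1-U2 libraries, against 155, 171, 152 and 145 CPM in wild-type, a log2 fold change of 0.20 (SE 0.07; edgeR adjusted p = 0.150). Library 3 of ΔDMR1-U2 lay below wild-type library 1B, so the groups overlapped. Rps3a had 267, 242, 253 and 230 CPM in the ΔDMR1-U2 libraries, against 216, 238, 203 and 205 CPM in wild-type, overlapping in the same way. Rpsa, also known as the laminin receptor precursor, and Rps19, the first gene found mutated in Diamond-Blackfan anaemia, had log2 fold changes of 0.08 and 0.11. Of 18 tested Diamond-Blackfan anaemia genes, 15 had a positive value and 0 were called by edgeR or DESeq2. An unadjusted p under 0.05 was found for 3 (16.7%), beside 21.3% of all genes.

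All 4 X-linked members had positive values, 0 called by edgeR or DESeq2 and 1 with an unadjusted p under 0.05: 0.23 for Rps4x, 0.10 for Rpl10, 0.17 for Rpl36a and 0.13 for Rpl39. The library labelled 1A, with almost no Xist, was the highest ΔDMR1-U2 library for Rps4x, at 438 CPM against 388, 407 and 368 in the other 3. It was also the highest for Rpl36a and Rpl39 and the second highest for Rpl10. The same library was also the highest for some autosomal members, such as Rpl4, Rpl5 and Rpl7, and the lowest for others, such as Rpl8 and Rplp0. Whether X-linked and autosomal members differ in this was not tested. Without library 1A the values of the X-linked members were 0.18 for Rps4x, 0.08 for Rpl10, 0.11 for Rpl36a and 0.04 for Rpl39, all still positive and none called. Wild-type levels of Rps4x were 342, 389, 325 and 311 CPM, overlapping with ΔDMR1-U2.

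Rpl3l (chr17:24727820-24736143, plus strand) was set against Rpl3 (chr15:80077791-80091868, minus strand). Rpl3l had 231, 179, 191 and 133 counts in the ΔDMR1-U2 libraries, against 201, 261, 437 and 425 counts in wild-type. In CPM these were 11.8, 9.54, 11.4 and 6.56 in ΔDMR1-U2 and 13.0, 9.98, 16.3 and 18.04 in wild-type. Wild-type library 1B lay inside the ΔDMR1-U2 range, and the other 3 wild-type libraries above it. The log2 fold change was -0.55 (SE 0.21; edgeR adjusted p = 0.172), and without ΔDMR1-U2 library 3 it was -0.39. Rpl3 stood at 185 ± 6.90 CPM in the ΔDMR1-U2 libraries, against 180 ± 12.8 CPM in wild-type, a log2 fold change of 0.04 (SE 0.07; edgeR adjusted p = 0.762), or -0.01 without ΔDMR1-U2 libraries 1A and 1B.

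As a percentage of Rpl3 counts, Rpl3l reached 6.27, 4.93, 6.33 and 3.66 in ΔDMR1-U2 and 6.72, 5.34, 9.39 and 10.9 in wild-type, means of 5.30% ± 1.27 in ΔDMR1-U2 and 8.09% ± 2.52 in wild-type. Scaled per length of merged exon, this share averaged 10.2% ± 2.45 for ΔDMR1-U2 libraries, against 15.6% ± 4.87 for wild-type ones. Merged exons span 3175 bases for Rpl3 and 1643 for Rpl3l, whereas their coding lengths are close, at 1209 and 1221 bases. How much the scaling raises the share thus depends on the annotated transcripts. Newborn muscle of both genotypes held far fewer Rpl3l than Rpl3 reads. The log2 ratio differed by -0.59 (SE 0.30), and the groups overlapped; the exact two-sided permutation test gave p = 0.114, or 0.16 adjusted over the 7 pairs tested. Rpl3l is unique throughout its coding sequence, while Rpl3 is unique over 4.31% of its own. The tested genes most like Rpl3l in log2 CPM over the 8 libraries were Erg (r = 0.965), Ccdc149 (0.965), Coq10a (0.947), A430110N23Rik (0.943), 4930502E09Rik (0.936) and Ccdc80 (0.933), given as a description of libraries that share depth and group.

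The other 6 paralog pairs were compared in the same way, and in all 7 the mean ratio of paralog to partner was lower in ΔDMR1-U2, though for Rpl39l not without ΔDMR1-U2 library 3. For 4 pairs the groups did not overlap, which gives p = 0.0286 in the exact permutation test, the smallest that 4 against 4 libraries allow; adjusted over 7 pairs this is 0.05, not under the threshold. The log2 ratio of Rpl7l1 to Rpl7 was -2.80, -2.73, -2.47 and -2.52 in ΔDMR1-U2 libraries, against -2.03, -2.32, -2.18 and -2.23 in wild-type, a difference of -0.44 (SE 0.10). Rpl36al exceeded its X-linked partner Rpl36a, at 217% ± 14.5 of its counts in ΔDMR1-U2, against 251% ± 9.73 in wild-type, a log2 difference of -0.22 (SE 0.06). Neither of these genes has a unique 50-base coding stretch, and Rpl36al exons overlap Gm49383 on the same strand, so this ratio is uncertain.

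The row Rps4y2 is listed in the annotation under the symbol Rps4l as a transcribed processed pseudogene. Its level was 11.2, 11.7, 12.9 and 10.5 CPM in the ΔDMR1-U2 libraries, against 14.1, 13.4, 15.4 and 14.05 CPM in wild-type. The groups did not overlap, at a log2 fold change of -0.30 (SE 0.09; edgeR adjusted p = 0.110). It had 2.90% ± 0.268 of the counts of Rps4x in ΔDMR1-U2, against 4.21% ± 0.566 in wild-type, a log2 difference of -0.53 (SE 0.12). Rps27l, in human cells a target of p53, had 1531% to 2646% of the counts of Rps27 in ΔDMR1-U2 libraries, against 3214% to 6520% in wild-type. Its log2 difference of -1.02 (SE 0.29) thus rests on the 15 to 29 counts of Rps27. For Rpl22l1 against Rpl22 the groups overlapped, with 5.03% ± 0.212 in ΔDMR1-U2, 5.51% ± 0.698 in wild-type and an adjusted p of 0.30 (exact permutation test). Rpl39l, best known from male germ cells, had 2.33% ± 1.23 of the counts of Rpl39 in ΔDMR1-U2, against 2.96% ± 1.69 in wild-type (adjusted p = 0.60, exact permutation test), and its log2 difference was -0.46, or 0.14 without ΔDMR1-U2 library 3. The partners are core members, whose common sign enters each ratio, so the 7 pairs are not independent of one another.

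**Figure D4:**
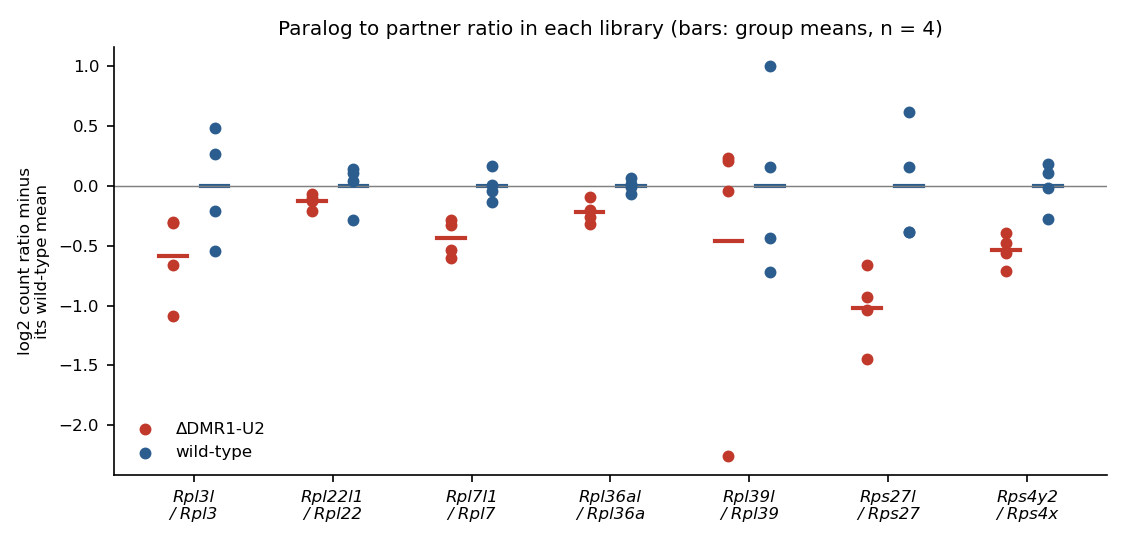
Log2 ratio of paralog to partner counts in each library, less the wild-type mean of the pair; red points are the 4 ΔDMR1-U2 libraries, blue points the 4 wild-type libraries and bars the group means. The groups are apart for Rpl7l1, Rpl36al, Rps27l and Rps4y2 and overlap for Rpl3l, Rpl22l1 and Rpl39l.

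Genes that assemble ribosomes or transcribe their RNA had medians near 0. Of 84 tested assembly factors, 0 were called by edgeR and 1 by DESeq2, beside 1.13% and 6.15% of all genes. Their median log2 fold change was -0.02. An unadjusted p under 0.05 was found for 7 (8.33%; 3 higher, 4 lower), beside 21.3% of all genes. Ncl (nucleolin) and Mybbp1a, the most abundant, stood at 0.01 and 0.00, and each took a negative value when ΔDMR1-U2 library 1A or wild-type library 1A or 3 was left out. Of 15 genes of the RNA polymerase I machinery, which makes the large ribosomal RNAs, 0 were called by edgeR or DESeq2. An unadjusted p under 0.05 was found for 2 (13.3%), beside 21.3% of all genes. The most abundant members of this machinery, Ubtf and Polr1a, had log2 fold changes of -0.03 and -0.05. These turned to 0.02 and 0.00 with scaling by the total count only. Of the ribosomal proteins outside the name rule, Fau had a value of 0.07 and Gnb2l1 (the older symbol of Rack1) one of 0.19. Neither was called by either tool, and Gnb2l1 had an unadjusted p under 0.05.

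Mitochondrial ribosomal protein genes, which build the separate ribosome of that organelle, leaned the opposite way. Of 76 tested, 68 had a negative log2 fold change, with a median of -0.16. None was called by edgeR (1.13% of all genes were), and 7 were called by DESeq2, beside 6.15% of all genes. An unadjusted p under 0.05 was found for 25, all with a lower mean in ΔDMR1-U2, beside 10.9% of all genes with a lower mean. Libraries did not overlap for 16 of them, 15 lower and 1 higher, beside 6.38% and 6.4% of all genes. Their summed level was 1656.18, 1528.03, 1674.17 and 1524.1 CPM in the ΔDMR1-U2 libraries, against 1897.61, 1816.42, 1689.57 and 1710.72 CPM in wild-type, so the groups were apart by a narrow margin. Cytosolic and mitochondrial ribosomal proteins thus had medians of opposite sign, 0.10 and -0.16, in the same fit; no test of that difference was run.

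**Figure D5:**
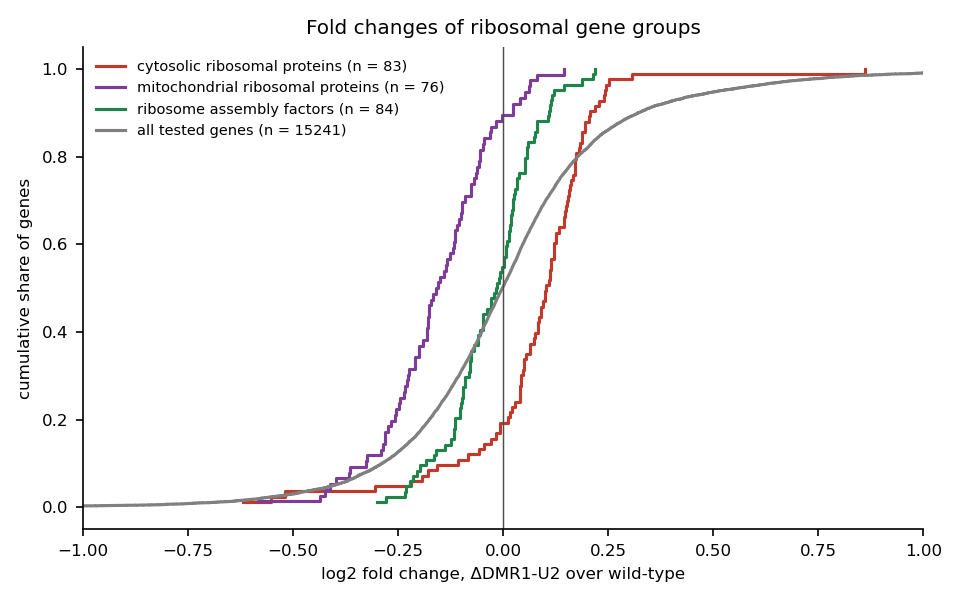
Cumulative share of genes by log2 fold change of ΔDMR1-U2 over wild-type (axis limited to 1 in either direction) for 83 cytosolic ribosomal proteins, 76 mitochondrial ribosomal proteins, 84 assembly factors and all 15241 tested genes. The cytosolic curve lies right of 0 for 67 genes and the mitochondrial curve left of 0 for 68, while assembly factors have a median of -0.02.

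Other mRNAs with a terminal oligopyrimidine start and the elongation factors gave a mixed list of 21 tested genes. By edgeR 1 gene of it fell (beside 0.617% of all genes called lower) and 0 rose, while DESeq2 called 4, of which 3 had a higher mean (Eef1a1, Eif4a2 and Eif4b), beside 6.15% of all genes called by DESeq2 in either direction. At an unadjusted p under 0.05, 7 had a higher and 2 a lower mean, beside 10.4% and 10.9% of all genes. Eef1a1, the elongation factor that brings tRNA to the ribosome in most tissues, had 4608.59, 4927.55, 4804.08 and 4691.29 CPM in the ΔDMR1-U2 libraries, against 4017.13, 4419.49, 3710.08 and 3889.08 CPM in wild-type. The groups did not overlap, at a log2 fold change of 0.25 (SE 0.08; edgeR adjusted p = 0.120, DESeq2 adjusted p = 0.0156). Eef1a2, the form that replaces Eef1a1 in muscle and nerve after birth, fell: it had 58.5, 33.2, 50.8 and 43.4 CPM in the ΔDMR1-U2 libraries, against 118, 70.3, 87.5 and 135 CPM in wild-type. Its log2 fold change was -1.14 (SE 0.21; edgeR adjusted p = 0.0366). It was no longer called when ΔDMR1-U2 library 3 (-1.11) was left out, or wild-type library 1A (-1.07), 2 (-1.21) or 3 (-0.98), or ΔDMR1-U2 libraries 1A and 1B together (-1.13). Eef1a2 counts were 1.27%, 0.674%, 1.06% and 0.925% of Eef1a1 counts in ΔDMR1-U2, against 2.94%, 1.59%, 2.36% and 3.48% in wild-type; this ratio was chosen after its values were seen and was not tested. Wild-type library 1B was the lowest wild-type library for Eef1a2 and for Rpl3l.

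Of 27 initiation factors, 1 fell (beside 0.617% of all genes) and 0 rose (beside 0.512%) by edgeR, with the same 1 called by DESeq2. Negative values were found for 20 and positive ones for 7, where 49.8% of all genes were positive. The one that fell was Eif5a, which despite its name helps ribosomes past difficult peptide bonds, with 130 ± 10.5 CPM in the ΔDMR1-U2 libraries, against 169 ± 9.32 CPM in wild-type. Its log2 fold change was -0.37 (SE 0.07; edgeR adjusted p = 0.0426), and the call held without ΔDMR1-U2 library 2 but not without any other single library (-0.34 without ΔDMR1-U2 library 1B, -0.40 without wild-type library 3), nor with scaling by the total count only (-0.32) or with ΔDMR1-U2 libraries 1A and 1B left out (-0.35). Of 35 regulators of ribosomal protein synthesis, 1 rose by edgeR (beside 0.512% of all genes) and 1 fell (beside 0.617%). DESeq2 called 4 of them, Rictor and Sp1 with a higher mean and Rps6ka2 and Ddit4l with a lower one. It called 6.15% of all genes in either direction. Rictor, the defining subunit of mTORC2, had 109 ± 5.80 CPM in the ΔDMR1-U2 libraries, against 89.4 ± 1.04 CPM in wild-type, a log2 fold change of 0.29 (SE 0.06; edgeR adjusted p = 0.0457). Rictor, too, stayed called only when the library left out was ΔDMR1-U2 2; leaving out any other gave values of 0.25 to 0.31, and leaving out ΔDMR1-U2 libraries 1A and 1B gave 0.24. Rps6ka2, a kinase of the RSK family that can phosphorylate Rps6, had 23.4, 21.4, 24.7 and 23.7 CPM in the ΔDMR1-U2 libraries, against 38.1, 35.7, 32.7 and 38.1 CPM in wild-type. It fell, at a log2 fold change of -0.63 (SE 0.08; edgeR adjusted p = 0.0110), and was no longer called when library 3 of ΔDMR1-U2 (-0.64) or library 1A of wild-type (-0.61) was left out, or libraries 1A and 1B of ΔDMR1-U2 together (-0.58).

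Within the core members, positive values prevailed at every level of sequence uniqueness. Of the 27 tested core genes with no unique 50-base stretch, 23 had a positive log2 fold change, with a median of 0.14. Of the 37 with some unique sequence under 50%, 34 were positive, with a median of 0.11. Of the 11 that were unique over at least 50%, 9 were positive, with a median of 0.09. With the paralogs and other names included, 9 of 16 tested members unique over at least 50% were positive (median 0.05), against 23 of 28 with no unique stretch (median 0.14). The 5 rows named as ribosomal pseudogenes were left out by the rule; 4 of them were tested, with values of 0.11 to 0.18, 0 called by edgeR and 0 at an unadjusted p under 0.05.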

How the data were processed

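Per the file headers, the deposited table gives raw read counts per gene in 8 libraries, which the authors did not normalize. It also holds the authors' mean normalised counts (a signal), their linear fold of wild-type over ΔDMR1-U2, its log2 value and their p-value and adjusted p-value, all deposited without values per library. Per the submitters' processing notes, the build was mm10 and the tools were TopHat2 2.0.9 with Bowtie2 2.1.0, HTSeq 0.5.4p3, DESeq2 1.4.5 and FastQC 0.10.1. Not given in the sources used here are the annotation, the strand setting and the treatment of reads with several matches.

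Here the comparison used edgeR 4.0.16 (R 4.3.3; TMM scaling, filterByExpr at a minimum count of 10, quasi-likelihood test, Benjamini-Hochberg adjustment over 15241 genes), with DESeq2 1.42.0 as an alternative, after a test on simulated data. The biological coefficient of variation was 12.3%. Paralog ratios used log2 counts with 0.5 added and an exact two-sided permutation test over 70 assignments. Coordinates and coding sequences come from GENCODE vM21 (GRCm38, the assembly of mm10), where 84 members matched directly and 2 through an older symbol.

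The members and gene lists were chosen with earlier results of these data known. Genes were named if they were the 6 highest in level per kilobase, the 6 highest or lowest in log2 fold change, in a paralog pair, X-linked, not overlapping between groups, below the filter, examples of a role, or called in a list (otherwise its 2 most abundant). Eef1a1, Eif4a2, Eif4b, Sp1 and Ddit4l were named after their values were seen. Alternatives were other scalings, no filter, DESeq2, each library left out, ΔDMR1-U2 libraries 1A and 1B left out, and the label number as a block. Values of 1 member and of 1 gene of a list are not reported here; counts and medians over all members include that member.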

Additional observations from a re-analysis of the deposited data

Results flagged for a closer look

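Of 108 sets of 4 libraries examined, 5 held a library far from the other 3 by Dixon's criterion, and chance alone gives about 1 in 20. Rpl39l was at 0.296 CPM in ΔDMR1-U2 library 3, against 1.71 to 1.91 CPM in the other 3, and its log2 ratio to Rpl39 was -7.47 there, against -5.26 to -4.98. Rps6 was at 165 CPM in ΔDMR1-U2 library 3, against 183 to 184 CPM in the others. The summed share of counts of the ribosomal protein genes was 1.01% in the same library, against 1.11% to 1.12%. Rpl7 was at 316 CPM in wild-type library 1B, against 251 to 262 CPM in the other wild-type libraries. Of the 5, 4 concern ΔDMR1-U2 library 3.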

How the results depend on the processing

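No ribosomal protein gene was called lower under any alternative, and Rpl22 was the 1 called higher, by DESeq2. The number of all genes called was 172; it was 930 with DESeq2, 16 without ΔDMR1-U2 libraries 1A and 1B, 13 with the replicate block, and 7 to 631 with each library left out. The lowest number, 7, came with either ΔDMR1-U2 library 3 or library 1A of wild-type left out, then 10, 20 and 22 for wild-type libraries 2, 1B and 3; the highest was for ΔDMR1-U2 library 2. The numbers in the labels do not pair the libraries: same-numbered libraries correlated at -0.22 to -0.08. Under the replicate block the median log2 fold change of the members was 0.11 and the Rpl3l to Rpl3 difference -0.59, and the calls of Eif5a, Rictor and Rps6ka2 were lost. The median of the members was 0.08 to 0.15 and that of the mitochondrial ribosomal protein genes -0.17 to -0.11 over all alternatives. The summed share of the members was 0.0957 to 0.146 percentage points higher in ΔDMR1-U2 with each library left out, and 0.0812 with the TMM-scaled total, an alternative chosen after seeing the data. The Rpl3l to Rpl3 difference was -0.77 to -0.42 with each library left out.

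Of 660 alternative values for 44 named genes, 615 kept their direction and side of the threshold, 28 lost the call, 1 gained it and 16 changed sign. Mybbp1a was at -0.0011 with no filter, -0.058 without ΔDMR1-U2 libraries 1A and 1B, and -0.033 to 0.037 with each library left out. Ncl was at -0.19 without ΔDMR1-U2 libraries 1A and 1B, and -0.13 to 0.12 with each library left out. With the total count only, Polr1a was at 0.0029 and Ubtf at 0.020. Rpl3 was at -0.0055 without ΔDMR1-U2 libraries 1A and 1B. Rpl39l ran from -0.40 to 0.16 and its ratio to Rpl39 from -0.70 to 0.14 with each library left out. Without ΔDMR1-U2 libraries 1A and 1B, Rpl39l was at -0.67. Rplp1 was at -0.061 without ΔDMR1-U2 library 2 and at most 0.14 with a library left out. The cause of these shifts was not tested. With 4 libraries a group, a log2 difference of about 0.1 in a single member was near the median standard error of a member's log2 fold change (0.08). That standard error does not measure the uncertainty of the median over members.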
